A study of Mus musculus with 8 samples.

Results

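The 7 genes described here belong to the transcriptional program of the 2-cell mouse embryo. They are *Zscan4c*, *Zscan4d*, *Zscan4f*, *Zfp352*, *Tcstv1*, *Tcstv3* and *Obox6*, found by matching the Ensembl IDs of the count table to these symbols, and they account for 7 of its 55335 rows. The genes were selected on their normalised counts in these same 8 libraries, so their levels and fold changes are a description and no test was run on them. Polyadenylated RNA was sequenced from E14 ESCs, a mouse embryonic stem cell line, after lentiviral infection and puromycin selection. The control cells (NG, labelled negative control) carried a scrambled short hairpin RNA (shRNA), and the *Sox2*-KD, *hnRNPK*-KD and *Cdk9*-KD cells carried shRNAs against *Sox2*, *Hnrnpk* or *Cdk9*. Each of the 4 groups had 2 libraries, named as biological duplicates in the study's methods, and all 3 comparisons with control used the same 2 control libraries. The infected cells were selected as populations, and the labels name no clone.

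Shortly after fertilisation the mouse embryo activates its own genome, and a wave of genes peaks at the 2-cell stage and is then silenced. The transcription factor DUX, with DPPA2 and DPPA4 upstream of it, switches on many of these genes, among them the *Zscan4* and *Tcstv* clusters and *Zfp352*. In ESC cultures they are transcribed strongly in a small, changing fraction of cells, which pass in and out of a 2-cell-like state. ZSCAN4 proteins combine a SCAN domain with zinc fingers and are known for telomere elongation by recombination in ESCs. ZFP352 is a zinc finger protein, TCSTV1 and TCSTV3 are small proteins linked to telomere length, and OBOX6 is a homeobox protein of the oocyte-specific *Obox* family. In RNA from whole cultures, fewer cells in that state and less RNA per cell cannot be told apart.

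Sequences show which of these genes a sequencing read can tell apart. On GRCm38, *Zscan4c* (chr7:11005745-11010547, plus strand), *Zscan4d* (chr7:11161374-11166159, minus strand) and *Zscan4f* (chr7:11397915-11402318, plus strand) are protein-coding genes of 4 exons in a cluster of 9 *Zscan4* rows that spans 820 kb. *Obox6* (chr7:15833241-15839678, minus strand, 3 exons) lies 4.22 Mb further along the same chromosome. *Zfp352* has 2 exons (chr4:90218820-90225702, plus strand). *Tcstv1* (chr13:119893388-119894785, minus strand) and *Tcstv3* (chr13:120316878-120318178, plus strand) lie 422 kb apart. The coding sequences of *Zscan4c* and *Zscan4f* differ at 6 of 1518 bases, and *Zscan4d* differs from either at 35. The stretch from base 646 to base 765 of the coding sequence, counted from the start codon in the GENCODE vM21 transcripts, holds as many differences among the 3 copies as any stretch of its length. It is shown with the 9 differing bases in capitals, because it shows where a read can name *Zscan4d* and where it cannot separate *Zscan4c* from *Zscan4f*.
Zscan4c: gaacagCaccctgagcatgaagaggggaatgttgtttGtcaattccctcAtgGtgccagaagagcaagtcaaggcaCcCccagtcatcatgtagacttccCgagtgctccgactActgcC
Zscan4d: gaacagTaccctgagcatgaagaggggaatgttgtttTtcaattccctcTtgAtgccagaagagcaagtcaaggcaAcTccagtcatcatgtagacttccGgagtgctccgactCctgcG
Zscan4f: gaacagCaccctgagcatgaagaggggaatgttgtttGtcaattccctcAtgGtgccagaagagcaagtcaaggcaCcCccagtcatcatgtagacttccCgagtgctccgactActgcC
All 9 differences set *Zscan4d* apart, and *Zscan4c* and *Zscan4f* are identical over these 120 bases.

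Of all 150-base windows of the longest transcript, the read length used, 39.0% in *Zscan4c*, 87.0% in *Zscan4d* and 13.8% in *Zscan4f* occurred in no other annotated gene. For *Zscan4c* and for *Zscan4f*, the remaining windows were found again in 9 genes, namely the other 8 rows of the cluster and *Gm45551*. For *Zfp352*, *Tcstv1*, *Tcstv3* and *Obox6* every 150-base window was unique. Counts of a single *Zscan4* copy are therefore uncertain, and the sum of *Zscan4c*, *Zscan4d* and *Zscan4f* is given beside them. *Tcstv1* and *Tcstv3* have transcripts that are 90.2% identical over 743 aligned bases, but their coding sequences open almost alike. The first 120 coding bases are shown with the single differing base in capitals, to show how alike these starts are. A full 150-base read would still tell these genes apart.
Tcstv1: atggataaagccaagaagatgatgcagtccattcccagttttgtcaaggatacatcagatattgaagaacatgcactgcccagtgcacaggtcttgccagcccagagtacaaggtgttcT
Tcstv3: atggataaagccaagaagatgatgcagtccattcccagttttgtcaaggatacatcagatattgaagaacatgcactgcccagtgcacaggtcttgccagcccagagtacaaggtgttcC

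RefSeq promoter windows, from 250 bases before to 50 bases after each annotated start on GRCm38.p6, matched 4 of the 7 genes: *Zscan4c*, *Zscan4d*, *Zscan4f* and *Zfp352*. The *Zscan4* copies share their promoter as well as their coding sequence. The stretch of 120 bases around the TATAAA element, in capitals, is shown for each so that the copies can be compared. Whether it bears on their levels was not tested.
Zscan4c (chr7:11005601-11005720, plus strand): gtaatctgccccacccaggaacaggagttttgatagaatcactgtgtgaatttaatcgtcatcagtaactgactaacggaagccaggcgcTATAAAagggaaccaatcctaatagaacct
Zscan4d (chr7:11166184-11166303, minus strand): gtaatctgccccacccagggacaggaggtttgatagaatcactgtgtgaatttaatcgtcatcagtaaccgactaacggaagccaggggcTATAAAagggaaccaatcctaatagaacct
Zscan4f (chr7:11397794-11397913, plus strand): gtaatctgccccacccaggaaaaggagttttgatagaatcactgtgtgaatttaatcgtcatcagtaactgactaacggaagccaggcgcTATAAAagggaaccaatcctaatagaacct
The *Zscan4c* stretch differs from that of *Zscan4f* at 1 base and from that of *Zscan4d* at 4. TATAAA began 54, 65 and 31 bases before the annotated starts of *Zscan4c*, *Zscan4d* and *Zscan4f*, and 13.6% of all 32851 promoter windows held it on either strand. The core of the DUX site (GATTNAATC, in 0.268% of windows), the SOX core (CATTGT, 12.6%) and a reported ZSCAN4 site (TGCACAC, 4.4%) were also searched on both strands. None of the 4 member windows held any of these 3 motifs, which says only that these letters are not in the windows.

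Upstream of *Zfp352* the window consists largely of a tandem repeat. The 250 bases before its start are shown with each TAATCC in capitals. This motif was chosen after the sequence had been seen.
Zfp352 (chr4:90218570-90218819, plus strand): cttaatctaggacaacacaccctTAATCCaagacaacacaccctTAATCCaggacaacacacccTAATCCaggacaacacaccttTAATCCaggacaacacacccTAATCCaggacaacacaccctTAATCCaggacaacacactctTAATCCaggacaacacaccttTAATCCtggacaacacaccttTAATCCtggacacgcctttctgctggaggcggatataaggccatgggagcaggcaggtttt
The repeat holds 9 copies of TAATCC in steps of 20 or 21 bases, and this was the only promoter window with as many, whereas 7.06% of windows held at least 1 copy on either strand.

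The libraries held 16709201 to 17719366 counts each. Levels are given as CPM, the count scaled to a common library size with TMM normalisation factors. The targeted mRNAs stood at 68.0% and 60.1% of the control mean for *Sox2* in the *Sox2*-KD libraries and at 61.4% and 44.7% for *Cdk9* in the *Cdk9*-KD libraries. *Hnrnpk* stood at 62.7% and 103.0% in the libraries labelled *hnRNPK*-KD, so replicate 2 of this group goes against its label. The fitted values of that group that the results turn on are given with and without it. Summed levels of 8 ESC markers lay between 4640.7 and 6549.7 CPM in all libraries, and none of the 8 was at 0. Both *Sox2*-KD libraries (4640.7 and 5077.5 CPM) lay below all others in this sum, which includes *Sox2* itself. Summed levels of 8 trophectoderm markers were 89.0 to 101.0 CPM in control, 185.0 to 317.0 CPM in *Sox2*-KD, 97.5 to 130.0 CPM in *hnRNPK*-KD as labelled and 80.2 to 82.7 CPM in *Cdk9*-KD. Of these 8 markers 6 were tested, and 4 were called higher in *Sox2*-KD, where 4.32% of all tested genes were called. In *Cdk9*-KD, where 0.139% of all tested genes were called, 1 of these markers was called higher and 1 lower. In *Sox2*-KD, 1 ESC marker was called higher and 1 lower, and the lower one was *Sox2*, the targeted gene. Of the 8 primitive endoderm markers 6 were tested, and 2 were called higher and 1 lower in *Sox2*-KD. The sum of these 8 was lower there, at 132.0 and 201.0 CPM against 246.0 and 222.0 CPM in control. The part of these cell types in the results below was not tested.

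*Zscan4c* was counted 152 and 10 times in the control libraries, 88 and 74 times in *Sox2*-KD, 33 and 2 times in *hnRNPK*-KD, and 8 and 7 times in *Cdk9*-KD, replicate 1 first. As CPM the values were 8.56 and 0.573 in control, 4.84 and 4.22 in *Sox2*-KD, 1.93 and 0.116 in *hnRNPK*-KD, and 0.467 and 0.414 in *Cdk9*-KD. The 2 control libraries thus differed 14.9-fold, and both *Sox2*-KD libraries fell between them. The *Cdk9*-KD libraries lay below both controls, whereas those labelled *hnRNPK*-KD overlapped the control range.

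*Zscan4d* gave counts of 117 and 13 in control, 92 and 77 in *Sox2*-KD, 27 and 1 in *hnRNPK*-KD, and 15 and 3 in *Cdk9*-KD. In CPM it stood at 6.59 and 0.745 in control, 5.06 and 4.39 in *Sox2*-KD, 1.58 and 0.0582 in *hnRNPK*-KD, and 0.876 and 0.177 in *Cdk9*-KD. The order of the libraries was close to that of *Zscan4c*, except that *Cdk9*-KD replicate 1 exceeded control replicate 2. *Zscan4f*, whose windows are the least unique, had counts of 100 and 8 in control, 63 and 47 in *Sox2*-KD, 25 and 1 in *hnRNPK*-KD, and 7 and 6 in *Cdk9*-KD. Its levels were 5.63 and 0.458 CPM in control, 3.46 and 2.68 CPM in *Sox2*-KD, 1.47 and 0.0582 CPM in *hnRNPK*-KD, and 0.409 and 0.355 CPM in *Cdk9*-KD. Control replicate 1 was again the highest library, and *hnRNPK*-KD replicate 2 the lowest.

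**Figure D1:**
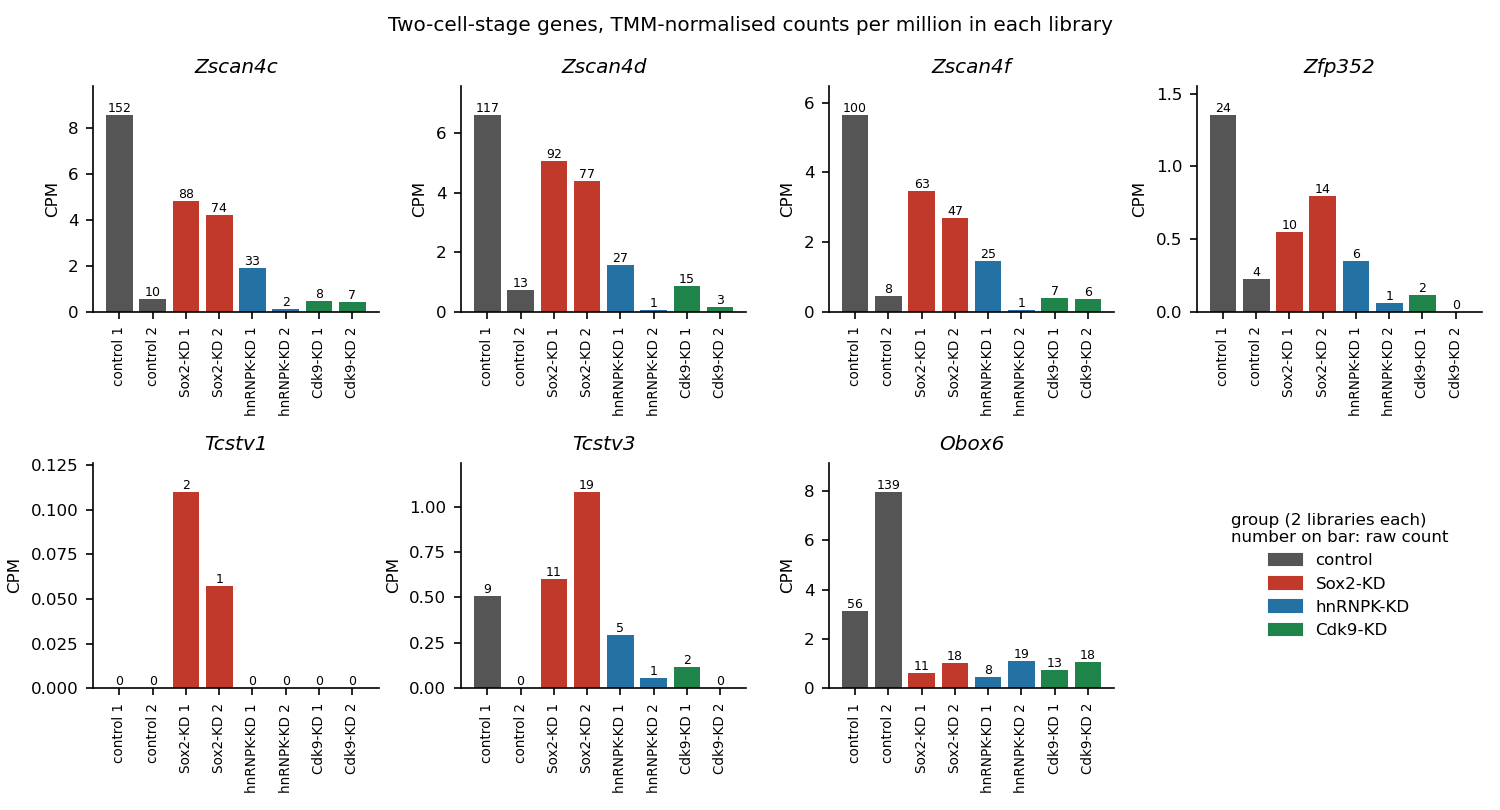
Bars give TMM-normalised CPM of each gene in each of the 8 libraries (linear axis from 0, a separate scale per gene), with the raw count on the bar and the group by colour. For the *Zscan4* copies and *Zfp352*, control replicate 1 is the highest library and control replicate 2 lies below both *Sox2*-KD libraries, whereas *Obox6* is high in both control libraries, at 3.15 and 7.96 CPM, and at most 1.11 CPM elsewhere.

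Summed over the 3 copies, the level was 20.8 CPM in control replicate 1 (369 counts, exact Poisson 95% interval 18.7 to 23.0 CPM) and 1.78 CPM in control replicate 2 (31 counts, 1.21 to 2.52 CPM). The sums were 13.4 and 11.3 CPM in *Sox2*-KD, 4.98 and 0.233 CPM in *hnRNPK*-KD, and 1.75 and 0.946 CPM in *Cdk9*-KD. These intervals cover counting error only. The control replicates therefore differed 11.7-fold, far beyond counting error, and the libraries labelled *hnRNPK*-KD differed 21.4-fold. The replicates were 1.18-fold apart in *Sox2*-KD and 1.85-fold apart in *Cdk9*-KD. By group means, *Sox2*-KD (12.3 ± 1.45 CPM, SD, n = 2) stood first, followed by control (11.3 ± 13.4), *hnRNPK*-KD (2.61 ± 3.36) and *Cdk9*-KD (1.35 ± 0.57). Each group overlapped its neighbours in this order, whereas both *Sox2*-KD libraries lay above all 4 libraries of *hnRNPK*-KD and *Cdk9*-KD.

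The direction of a change against control depended on which control library was used. With all libraries, the summed copies had a log2FC of 0.13 for *Sox2*-KD, -2.11 for *hnRNPK*-KD as labelled and -3.06 for *Cdk9*-KD. Without control replicate 1 the same values were 2.78, 0.53 and -0.43, and without control replicate 2 they were -0.76, -3.01 and -3.97. Leaving out *hnRNPK*-KD replicate 2, whose *Hnrnpk* level was not lower, gave -1.2. Leaving out *hnRNPK*-KD replicate 1 gave -5.6. *Cdk9*-KD was thus the only group whose summed *Zscan4* value stayed below control whichever single library was left out, and its size then ranged from -3.97 to -0.43.

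**Figure D2:**
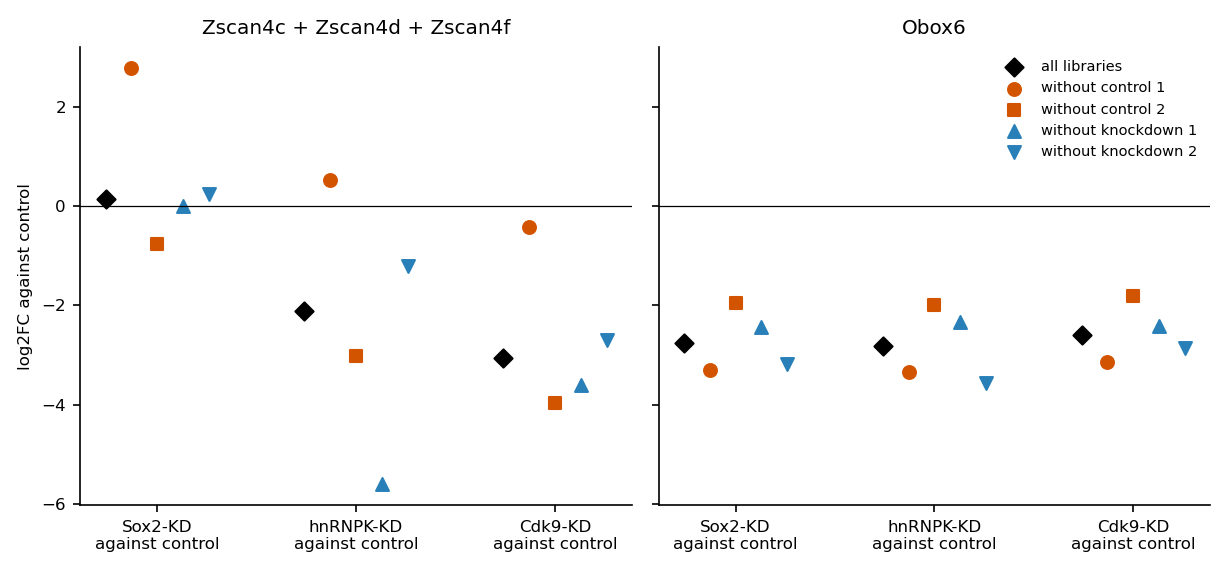
The log2FC against control is plotted for the summed *Zscan4c*, *Zscan4d* and *Zscan4f* counts (left) and for *Obox6* (right), with all libraries (diamonds) and without each control or knockdown library (other symbols). Without control replicate 1 the *Zscan4* point moves from 0.13 to 2.78 in *Sox2*-KD and from -2.11 to 0.53 in *hnRNPK*-KD, and without control replicate 2 it lies at -0.76 in *Sox2*-KD, whereas all *Obox6* points lie between -3.57 and -1.81.

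The share of each copy in this sum varied less than the sum itself. In control replicate 1, *Zscan4c*, *Zscan4d* and *Zscan4f* took 41.2%, 31.7% and 27.1% of the 369 counts, with Wilson 95% intervals of 36.3 to 46.3, 27.2 to 36.6 and 22.8 to 31.9%. In control replicate 2, with 31 counts, the shares were 32.3%, 41.9% and 25.8%. *Sox2*-KD replicate 1 had 36.2%, 37.9% and 25.9%, and replicate 2 had 37.4%, 38.9% and 23.7%. For each of the 3 copies the intervals of all 8 libraries overlapped. Differences in the copies' shares were not detectable at the depth of the low libraries, where *hnRNPK*-KD replicate 2 had 4 counts in all. Per kilobase of exon the control means were 2.01, 1.61 and 1.55 CPM for *Zscan4c*, *Zscan4d* and *Zscan4f*, but shared reads can move counts between the copies.

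**Figure D3:**
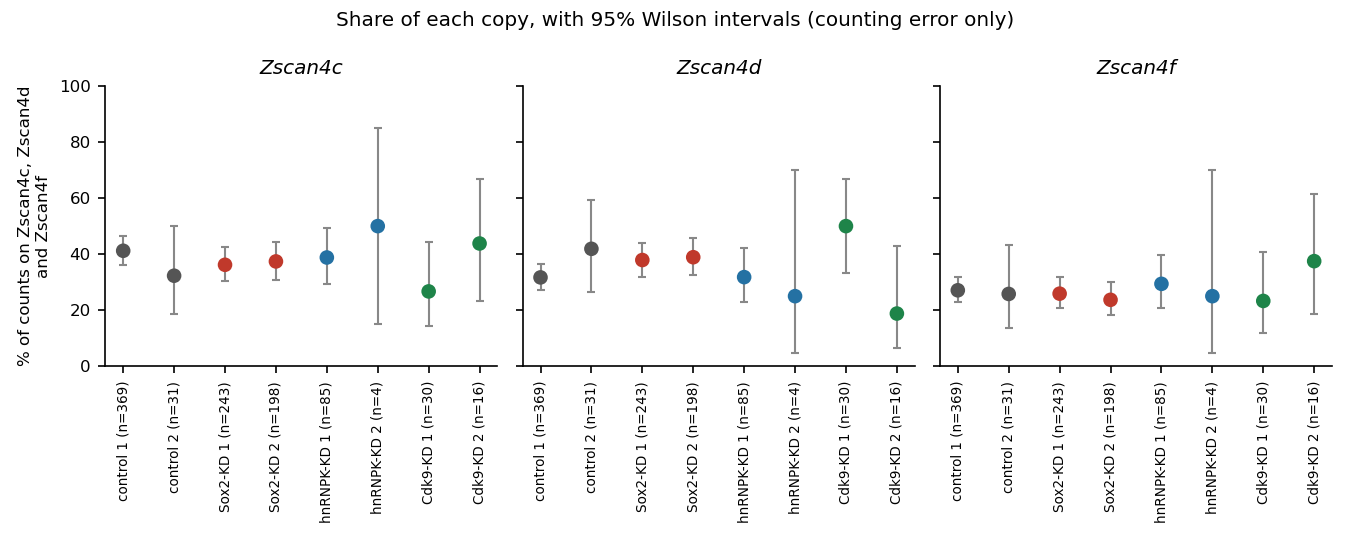
Points give the percentage of the *Zscan4c*, *Zscan4d* and *Zscan4f* counts that falls on each copy in each library, with 95% Wilson intervals as bars and the summed count as n. The shares in control replicate 1 (41.2%, 31.7% and 27.1%) and *Sox2*-KD replicate 1 (36.2%, 37.9% and 25.9%) lie close together, and the libraries with few counts have wide intervals.

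The other 6 rows of the cluster followed the same course. *Zscan4a* had 105 and 10 counts in control, 47 and 28 in *Sox2*-KD, 27 and 1 in *hnRNPK*-KD, and 7 and 5 in *Cdk9*-KD. *Zscan4b* had 33 and 1, 13 and 21, 7 and 0, and 4 and 0 counts in the same order of groups, and *Zscan4e* had 80 and 4, 50 and 60, 29 and 0, and 16 and 3. Each was highest in control replicate 1, and each was at 1 count or fewer in *hnRNPK*-KD replicate 2. The 3 rows named as pseudogenes, *Zscan4-ps1*, *Zscan4-ps2* and *Zscan4-ps3*, ranged from 44 to 101 counts in control replicate 1 and from 1 to 9 in control replicate 2. Despite their names the annotation used lists these 3 as protein-coding, and it lists *Zscan4a* as an unprocessed pseudogene. Summed over all 9 rows the controls stood at 44.3 and 3.49 CPM.

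*Zfp352* was counted 24 and 4 times in control, 10 and 14 times in *Sox2*-KD, 6 and 1 times in *hnRNPK*-KD, and 2 and 0 times in *Cdk9*-KD. The levels were 1.35 and 0.229 CPM in control, 0.549 and 0.799 CPM in *Sox2*-KD, 0.352 and 0.0582 CPM in *hnRNPK*-KD, and 0.117 CPM in *Cdk9*-KD replicate 1. The 0 in *Cdk9*-KD replicate 2 allows a level of up to 0.177 CPM (3 counts). As with *Zscan4*, control replicate 1 was highest and both *Sox2*-KD libraries lay between the controls. At the read length no window of this gene was shared, and at 100 bases 99.4% of its windows were unique.

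*Tcstv3* had 9 and 0 counts in control, 11 and 19 in *Sox2*-KD, 5 and 1 in *hnRNPK*-KD, and 2 and 0 in *Cdk9*-KD. Its CPM values were 0.507 and 0 in control, 0.604 and 1.08 in *Sox2*-KD, 0.293 and 0.0582 in *hnRNPK*-KD, and 0.117 and 0 in *Cdk9*-KD. Both *Sox2*-KD libraries lay above both controls, the upper control by a margin of 2 counts. The control count of 0 allows up to 0.172 CPM. *Tcstv1* was found only in *Sox2*-KD, with 2 and 1 counts, and was at 0 in the other 6 libraries, which allow up to 0.169 to 0.177 CPM. All its groups were at or under 3 counts, so no fold was computed, and *Tcstv1* was the only one of the 7 genes that did not pass the filter on low counts.

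*Obox6* had another pattern than the other members. It had 56 and 139 counts in control, 11 and 18 in *Sox2*-KD, 8 and 19 in *hnRNPK*-KD, and 13 and 18 in *Cdk9*-KD. The levels were 3.15 and 7.96 CPM in control (mean 5.56 ± 3.4, SD, n = 2), against 0.604 and 1.03 in *Sox2*-KD, 0.469 and 1.11 in *hnRNPK*-KD, and 0.759 and 1.06 in *Cdk9*-KD. Both control libraries lay above all 6 knockdown libraries, and the 3 knockdown groups overlapped one another. Here control replicate 2, the low library for *Zscan4*, was the higher of the pair. The log2FC against control was -2.76 in *Sox2*-KD, -2.81 in *hnRNPK*-KD and -2.6 in *Cdk9*-KD, corresponding to 14.7%, 14.2% and 16.4% of the control mean. The 3 values share the same control libraries and are not independent. Without any one library they stayed between -3.57 and -1.81, and without *hnRNPK*-KD replicate 2 the value of that group was -3.57. Of the other *Obox* genes listed, *Obox3* had 2 counts and *Obox7* had 1, all in *Sox2*-KD replicate 2, and *Obox1*, *Obox2*, *Obox5* and *Obox8* had none. By level per kilobase of exon, *Obox6* was the highest of the 7 genes in the control group (4.14 CPM per kb), above *Zscan4c* (2.01 CPM per kb), though in control replicate 1 *Zscan4c* stood higher (3.76 against 2.35 CPM per kb).

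Of the 6 members tested, *Tcstv3* and *Obox6* did not overlap between *Sox2*-KD and control, a state found in 53.3% of all 16504 tested genes. *Obox6* alone did not overlap between *hnRNPK*-KD and control (39.1% of tested genes), and 4 genes, *Zscan4c*, *Zscan4f*, *Zfp352* and *Obox6*, did not overlap between *Cdk9*-KD and control (39.2%). The genes were selected on these values, so nothing is read from these counts.

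A wider list of 55 symbols of the 2-cell program was then examined across the whole table, with the members left out. It held the other *Zscan4* rows, the *Usp17l*, *Tdpoz* and *Eif1a*-like families, further DUX targets and the other *Obox* genes. Of its 54 matched rows, 46 had a count and 34 passed the filter. *Dux* itself, listed as *Duxf3* in the annotation, had 1 and 0 counts in control, 0 and 3 in *Sox2*-KD and none elsewhere, so that neither a level nor a difference was detectable at this depth.

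In the wider list 12 genes were higher and 3 lower with libraries that did not overlap between *Sox2*-KD and control. In the *hnRNPK*-KD comparison 3 such genes were lower, and in that of *Cdk9*-KD 8 were lower. These counts are to be read against the 53.3%, 39.1% and 39.2% given above. Some of the 12 higher genes met the low-count filter only through the *Sox2*-KD libraries, where they are high. Nothing is read from the 12. No gene of the wider list was called in any of the 3 comparisons by edgeR's quasi-likelihood test (adjusted p below 0.05 and absolute log2FC above 0.6). Over all tested genes 4.32% were called in *Sox2*-KD, 0.0% in *hnRNPK*-KD and 0.139% in *Cdk9*-KD. At an unadjusted p below 0.05, 2 of the 34 genes were higher and 1 was lower in *Sox2*-KD (19.3% of all tested genes in either direction), none passed in *hnRNPK*-KD (8.03%), and 9 were lower and none higher in *Cdk9*-KD (10.4%). DESeq2 called 1 gene, *Zscan4-ps3*, lower in *Cdk9*-KD (adjusted p = 0.0391). It had 101 and 9 counts in control and 7 and 3 in *Cdk9*-KD, so control replicate 2 was close to *Cdk9*-KD replicate 1. Of its 150-base windows 63.6% were unique, so its count as a single copy is uncertain. The likelihood ratio test of edgeR called 1 gene higher in *Sox2*-KD, *Ubtfl1* (adjusted p = 0.0273), which encodes a protein related to the ribosomal RNA gene factor UBTF. *Ubtfl1* had 5 and 2 counts in control and 12 and 22 in *Sox2*-KD. Only the *Sox2*-KD libraries reached the filter's minimum count of 10, so it was tested only through the group where it is high. Nothing is read from this call. Neither tool called a gene of this list in *hnRNPK*-KD. *Zscan4-ps3* and *Ubtfl1* are named because they were these 2 calls.

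The medians of the wider list were nevertheless far apart. Over the 34 genes the log2FC had a median of 0.38 for *Sox2*-KD, -1.11 for *hnRNPK*-KD and -2.03 for *Cdk9*-KD, where the median over all tested genes was 0.02 in each. In *Cdk9*-KD the log2FC of all 34 was below 0, in *hnRNPK*-KD that of 31, and in *Sox2*-KD that of 8. Over the 5 genes with at least 10 counts in every library the medians were 0.12, -0.33 and -0.14. That filter leaves out every gene near 0 in any library, so these medians cannot speak for the other genes. With the 4 libraries compared alone, and genes filtered anew on their counts, the *Cdk9*-KD median was -1.28 over 15 genes. As for the *Zscan4* copies, the medians also turned on the control libraries. A lone control library is assumed in these fits to vary like the libraries of the other groups. Without control replicate 1 the median in *Sox2*-KD was 2.41, and 18 of 35 tested genes were higher at an unadjusted p below 0.05 (7.75% of all genes tested in that fit). The median in *hnRNPK*-KD was 0.66. In *Cdk9*-KD the median was then -0.0, and 14 of the 35 genes had a log2FC above 0. Without control replicate 2 the medians, in the same order of comparisons, were -0.2, -1.99 and -2.85. At an unadjusted p below 0.05, 2 of 35 genes were then lower in *Sox2*-KD, 18 in *hnRNPK*-KD and 24 in *Cdk9*-KD (5.63%, 2.46% and 3.59% of all genes tested in those fits). None of these genes was called after adjustment in either fit. Without *hnRNPK*-KD replicate 2 that group's median was -0.58. The *Cdk9*-KD median was -1.38 without *Cdk9*-KD replicate 2 and -2.82 without *Cdk9*-KD replicate 1.

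**Figure D4:**
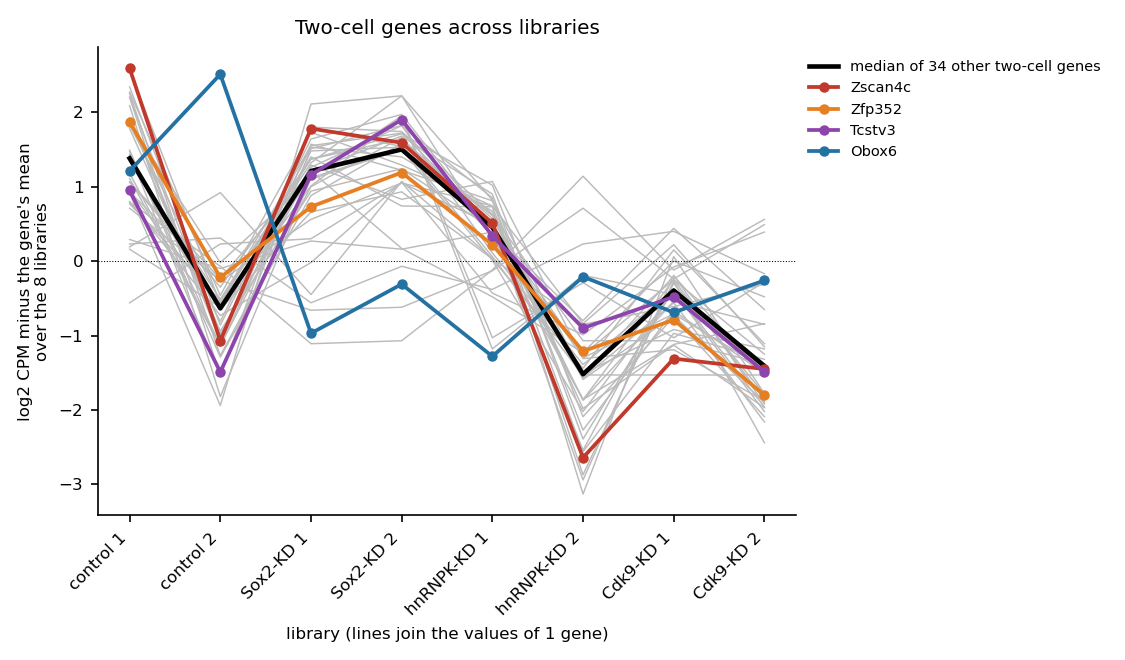
Each line is 1 gene, as log2 CPM minus its mean over the 8 libraries: grey for the 34 tested genes of the wider 2-cell list, black for their median, colours for 4 members. The median runs from 1.38 in control replicate 1 to -0.64 in control replicate 2, is 1.21 and 1.5 in *Sox2*-KD and falls to -1.52 in *hnRNPK*-KD replicate 2, with *Zscan4c* following it and *Obox6* departing from it.

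The gap between the control replicates ran through most of the wider list. It was measured here on log2 CPM with a prior count of 2, which draws the ratios of low genes towards 1. On this scale 14 of all 16504 tested genes were more than 8-fold higher in control replicate 1 than in replicate 2 (0.0848%), and these included 2 members and 6 genes of the wider list. Of the 34 wider genes, 31 were higher in control replicate 1, with a median ratio of 4.74, whereas the median ratio over all tested genes was 1.0. The libraries labelled *hnRNPK*-KD showed the same course, with 29 of 34 genes higher in replicate 1 and a median ratio of 3.79. In *Sox2*-KD 9 of 34 were higher in replicate 1 (median ratio 0.81), and in *Cdk9*-KD 27 of 34 (1.89). The multicopy families can be given as sums. The 5 *Usp17l* rows, a cluster of deubiquitinase genes, summed to 142 and 17 counts in control, 207 and 213 in *Sox2*-KD, 71 and 7 in *hnRNPK*-KD, and 29 and 12 in *Cdk9*-KD. The 4 *Eif1a*-like rows *Gm2016*, *Gm2022*, *Gm5662* and *Gm8300* summed to 342 and 42, 206 and 174, 133 and 20, and 44 and 16 counts. The 5 *Tdpoz* rows summed to 38 and 9, 43 and 54, 26 and 1, and 8 and 0. Control replicate 1 exceeded control replicate 2 in all 3 families, and both *Sox2*-KD libraries exceeded control replicate 2.

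Likeness to the *Zscan4* pattern was measured by Pearson's r over the 8 libraries between log2 CPM of a gene and of the summed *Zscan4c*, *Zscan4d* and *Zscan4f* counts. It is a description without a p, since the points share their libraries. Of the wider list, 21 of 34 genes had r above 0.9 (61.8%), against 0.491% of the 16498 tested genes that are not members. The list holds 6 other rows of the *Zscan4* cluster, which can share reads with the sum, and without them 16 of 28 genes (57.1%) had r above 0.9. Without the 2 libraries farthest from the median of the *Zscan4* sum, control replicate 1 and *hnRNPK*-KD replicate 2, 23 of 34 genes (67.6%) and 2.81% of tested genes had r above 0.9. Among the members, r was 0.92 for *Zfp352*, 0.84 for *Tcstv3* and -0.02 for *Obox6*. Of the wider list 3 genes had r below 0, namely *Trim43b*, *Trim43c* and *Patl2*, named after their values had been seen.

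**Figure D5:**
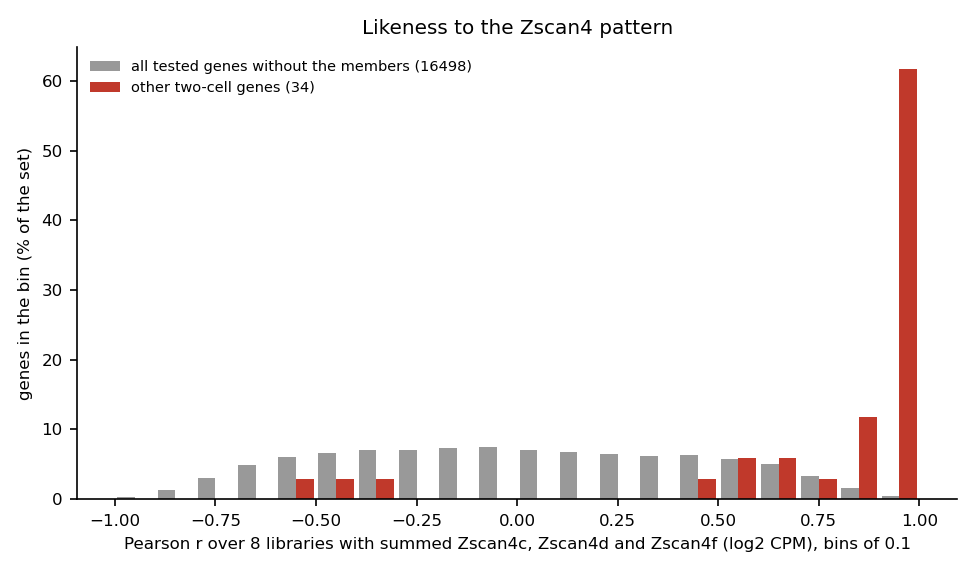
Bars give the percentage of genes in each bin of Pearson's r with the summed *Zscan4* level over the 8 libraries, grey for the 16498 tested genes that are not members and red for the 34 tested genes of the wider 2-cell list. The red bars pile up in the last bin (61.8% of the list), which holds 0.491% of all tested genes.

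The 10 genes most like the *Zscan4* sum, among tested genes with a mean log2 CPM above 0, were *Gm21761* (r = 0.989), *Zfp800* (0.985), *Gm8994* (0.981), *Zscan4a* (0.978), *Gm2016* (0.972), *Dynlt1c* (0.972), *Zscan4-ps3* (0.971), *Usp17le* (0.97), *Zscan4e* (0.968) and *Nudt18* (0.957). Of these, *Gm21761*, *Zfp800*, *Dynlt1c* and *Nudt18* were not on the wider list. *Gm21761* had counts of 186 and 17 in control, 134 and 153 in *Sox2*-KD, 61 and 3 in *hnRNPK*-KD, and 29 and 9 in *Cdk9*-KD. *Zfp800*, a zinc finger gene, had a smaller range, from 14.0 CPM in *Sox2*-KD replicate 1 to 5.47 CPM in *hnRNPK*-KD replicate 2. *Dynlt1c*, a dynein light chain gene, ranged from 14.0 to 8.21 CPM between the same 2 libraries.

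The genes most like *Obox6* were looked up after its values had been seen. *Dkk3*, which encodes a secreted protein of the Dickkopf family, came first with r = 0.983 over the 8 libraries, and its levels were 12.9 and 25.2 CPM in control, 4.12 and 6.39 in *Sox2*-KD, 4.1 and 6.87 in *hnRNPK*-KD, and 6.95 and 6.21 in *Cdk9*-KD. Like *Obox6*, it was high in both control libraries and higher in replicate 2. *Ccnb2*, the gene of cyclin B2, was next (r = 0.975), at 134.0 and 151.0 CPM in control and 108.0 to 126.0 CPM in the knockdown libraries. None of the 10 genes most like *Obox6* was on the wider 2-cell list.

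Regulators of the 2-cell state were examined as a list of 34 genes, 6 activators and 28 repressors, all of which were tested. In *Sox2*-KD 4 of them were called (11.8%, against 4.32% of tested genes), 2 activators higher and 2 repressors lower. *Dppa2*, an activator of *Dux*, was higher, at 82.5 and 94.1 CPM against 47.5 and 57.2 CPM in control (log2FC 0.75, SE 0.15, adjusted p = 0.0228). *Gata2*, a transcription factor linked to endogenous retroviral elements of the 2-cell stage, rose from 4.96 and 1.78 CPM to 11.3 and 13.2 CPM (log2FC 1.86, SE 0.44, adjusted p = 0.0404). *Chaf1b*, a subunit of the chromatin assembly factor CAF-1, which represses the 2-cell state, was lower, at 62.6 and 62.9 CPM against 94.4 and 97.8 (log2FC -0.62, SE 0.14, adjusted p = 0.0393). *Uhrf1*, which recruits the maintenance DNA methyltransferase, fell from 640.0 and 790.0 CPM to 417.0 and 466.0 CPM (log2FC -0.7, SE 0.16, adjusted p = 0.0367). All 4 had control and *Sox2*-KD libraries that did not overlap, as did 53.3% of all tested genes. They were called on these same libraries, so this adds no support. The 4 calls were kept without any 1 library of *hnRNPK*-KD or *Cdk9*-KD, and in a fit of only the 4 libraries compared. Most or all of them were lost without any 1 library of control or *Sox2*-KD. Such a fit leaves 1 library in that group, and fewer genes were called in it over all tested genes as well. DESeq2 and the likelihood ratio test each called 5, adding *E2f6*, which encodes a repressor of germline genes, as higher (adjusted p = 0.0425 and 0.025). *E2f6* stood at 28.4 and 26.0 CPM in control and 43.8 and 39.9 CPM in *Sox2*-KD (quasi-likelihood log2FC 0.62, SE 0.17, adjusted p = 0.0652).

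*Dppa4*, the partner of *Dppa2*, stood at 92.6 and 78.9 CPM in control and 79.6 and 74.4 CPM in *Sox2*-KD and was not called (log2FC -0.16, SE 0.16, adjusted p = 0.653). The median log2FC of the 34 regulators was -0.09 in *Sox2*-KD, 0.08 in *hnRNPK*-KD (0.03 without replicate 2) and 0.01 in *Cdk9*-KD. In *Sox2*-KD the median was -0.08 over the 6 activators, of which 2 were above 0, and -0.1 over the 28 repressors. No regulator was called by edgeR's quasi-likelihood test in *hnRNPK*-KD, where none passed an unadjusted p below 0.05 and neither DESeq2 nor the likelihood ratio test called any. In *Cdk9*-KD none was called either, while 2 were higher and none lower at an unadjusted p below 0.05 (10.4% of all tested genes). DESeq2 and the likelihood ratio test each called 1 of them there, *Tbx3* (adjusted p = 0.0339 and 0.0346). Levels of *Dppa2* and *Dppa4* in the control replicates were 1.2-fold and 1.17-fold apart, where those of the summed *Zscan4* copies were 11.7-fold apart.

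Telomere and recombination genes, a list of 10 of which 9 were tested, had no call by edgeR's quasi-likelihood test in any comparison. At an unadjusted p below 0.05, 1 was higher and 2 were lower in *Sox2*-KD, 1 was lower in *hnRNPK*-KD, and 2 were higher and 1 was lower in *Cdk9*-KD, where 19.3%, 8.03% and 10.4% of all tested genes passed in either direction. By DESeq2, *Smc1b*, which encodes a meiotic cohesin subunit, was called lower in *hnRNPK*-KD (adjusted p = 1.25e-06) and *Cdk9*-KD (adjusted p = 1.71e-05), and it is named for these calls. Its levels were 7.15 and 14.3 CPM in control, 4.62 and 11.7 in *Sox2*-KD, 0.704 and 1.45 in *hnRNPK*-KD, and 1.87 and 1.18 in *Cdk9*-KD. The quasi-likelihood values were a log2FC of -3.3 (SE 0.57, adjusted p = 0.173) in *hnRNPK*-KD, which became -3.94 (adjusted p = 0.51) without replicate 2, and -2.81 (SE 0.54, adjusted p = 0.0987) in *Cdk9*-KD. The likelihood ratio test called *Smc1b* in both and also *Acd*, a shelterin subunit, higher in *Cdk9*-KD (adjusted p = 0.0404). Neither DESeq2 nor the likelihood ratio test called a gene of this list in *Sox2*-KD.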

How the data were processed

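Per the labels and the study's methods, the authors sequenced polyadenylated RNA of 8 libraries as paired-end 150-base reads and aligned them to mm10 (GRCm38), and the submitters' processing notes name STAR 2.7.9a and featureCounts 2.0.1. The deposited values are raw counts per Ensembl gene. Whether strand was used, and how multi-mapping reads were handled, is not given in the sources used here. Of 55335 IDs, 55154 matched a GENCODE vM21 symbol, 567 of them without their version.

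Genes were kept with filterByExpr (minimum count 10, total 15), which left 16504, scaled by TMM and fitted in 1 model over all libraries with edgeR 4.0.16 (quasi-likelihood test in R 4.3.3, Benjamini-Hochberg adjustment over all tested genes). Calls needed an adjusted p below 0.05 and an absolute log2FC above 0.6, as in the study's methods. DESeq2 1.42.0, edgeR's likelihood ratio test, other scalings and filters, a replicate block and leaving out each library were alternatives. The fit was tested on simulated data.

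The members and the gene lists were chosen with earlier results of these data known. Named genes were the 7 members, the targeted genes, the *Zscan4* and *Obox* rows with a count, called genes of each list (at most 10 per comparison), *Dppa2*, *Dppa4* and *Dux*, and the 10 genes most like summed *Zscan4* in log2 CPM (prior count 2). *Dkk3*, *Ccnb2*, *Trim43b*, *Trim43c*, *Patl2*, genes called by the alternative tests alone and the *Obox* rows at 0 were named in addition, after their values were seen. Within each group the 2 libraries differed beyond sampling noise. With 2 libraries per group, p-values measure only the spread between these libraries. Marker lists for primitive endoderm and fibroblasts were also summed: 8 genes each, 132.0 to 347.0 CPM and 9.31 to 19.3 CPM over the libraries.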

Additional observations from a re-analysis of the deposited data

How the results depend on the processing

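Of the 9 counts of called genes, 8 were 0 with all libraries, so their repeats say little about stability. Called regulators in *Sox2*-KD numbered 4, 5 by DESeq2 and by the likelihood ratio test (adding *E2f6*), 4 with library totals (*E2f6* in place of *Chaf1b*), 2 without the filter on low counts (*Dppa2* and *Uhrf1*), and 0 to 4 when single libraries were left out. DESeq2 called 1 wider 2-cell gene, 1 regulator and 1 telomere gene in *Cdk9*-KD and 1 telomere gene in *hnRNPK*-KD. The likelihood ratio test called 1 wider 2-cell gene in *Sox2*-KD, 1 regulator and 2 telomere genes in *Cdk9*-KD and 1 telomere gene in *hnRNPK*-KD. The main counts for these were 0, and the cause was not tested. Leaving out single libraries left 0 calls in the other 8 counts.

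Same-numbered libraries did not deviate together with control in every group (r = 0.21, 0.116 and -0.063 for *Sox2*-KD, *hnRNPK*-KD and *Cdk9*-KD), so the numbers are not taken as pairs. With a replicate block, 4 regulators were called in *Sox2*-KD and 0 genes in the other 8 counts. The log2FC of summed *Zscan4* was then 1.02, -2.5 and -2.24. In *Sox2*-KD the log2FC of *Zscan4c* (-0.01) became 0.75 and that of *Zfp352* (-0.23) became 0.09 under the block. Scaling by library totals gave 0.04 for *Zscan4c*, and *Zscan4f* (0.01) became -0.02 without the filter and -0.01 with only the 4 libraries compared. Members with fewer than 20 counts in a library are limited by counting error.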
